A study of Drosophila melanogaster with 4 samples.

Results

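Long stretches of chromosome without enrichment for dimethylated lysine 36 of histone H3 (H3K36me2) were located on 4 chromosome arms of Drosophila melanogaster, namely 2L, 3L, 3R and X. A stretch is an interval of 75 kb or more between consecutive enriched regions, after the enriched regions of 3 deposited lists had been pooled and overlapping ones merged. By this rule 250 stretches were found among the 4766 intervals between merged regions on these arms, or 5.25%. All sequences in the lists together held 6371 such intervals. The stretches were chosen by the start and end positions of the listed regions, so the lengths, positions and neighbouring regions given here describe them, and no test was made.

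The lists come from chromatin immunoprecipitation followed by sequencing (ChIP-seq) on nuclei of heads of mixed adult flies of the wild-type strain Oregon-R. The labels give 2 ChIP samples, made with an antibody against H3K36me2, and 2 input samples of genomic DNA, each named as the background of 1 ChIP list. A list was deposited for each ChIP replicate, and a further list for the replicate set. Heads were sieved from flies of population cages and hold neurons, glia, photoreceptors, fat body and muscle, so every value is an average over many cell types. Separate fly collections for the replicates are not stated in the labels, so the spread between replicates may be technical. Neither the labelled tissue nor the gene content of a stretch could be checked, because no gene annotation of the genome release of the lists was used, and no gene is named.

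H3K36me2 is placed in flies by the methyltransferases Mes-4 and Ash1 and is found mainly over the bodies of transcribed genes. Methylation of this lysine hampers the Polycomb enzyme that methylates lysine 27 of the same histone, and silent Polycomb domains in flies are poor in it. Much of the fly genome also lies in silent chromatin without Polycomb marks, where genes are off in most tissues. Which of these states a stretch belongs to was not measured. An interval between regions is sequence that the authors' caller did not list, and not sequence shown to be free of the mark.

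The stretches took up a large part of the unlisted sequence although they were few. Their summed length was 33.4 Mb, which was 34.1% of the 97.9 Mb of the 4 arms and 46.4% of all sequence between merged regions. The other 4516 intervals were mostly short. The median over all intervals was 2460.5 bp, and 2956 intervals, or 62.0%, were under 5 kb. Interval lengths ran from 1 bp to 406 kb. Just inside the 75 kb limit were stretches of 75300 bp on X (1453468 to 1528767), 75618 bp on 3L (7533996 to 7609613) and 75786 bp on 3R (22304670 to 22380455). Just outside it were intervals of 74953 bp on 3L (5811689 to 5886641), 74701 bp on X (3386672 to 3461372) and 74450 bp on 3R (4396961 to 4471410).

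**Figure D1:**
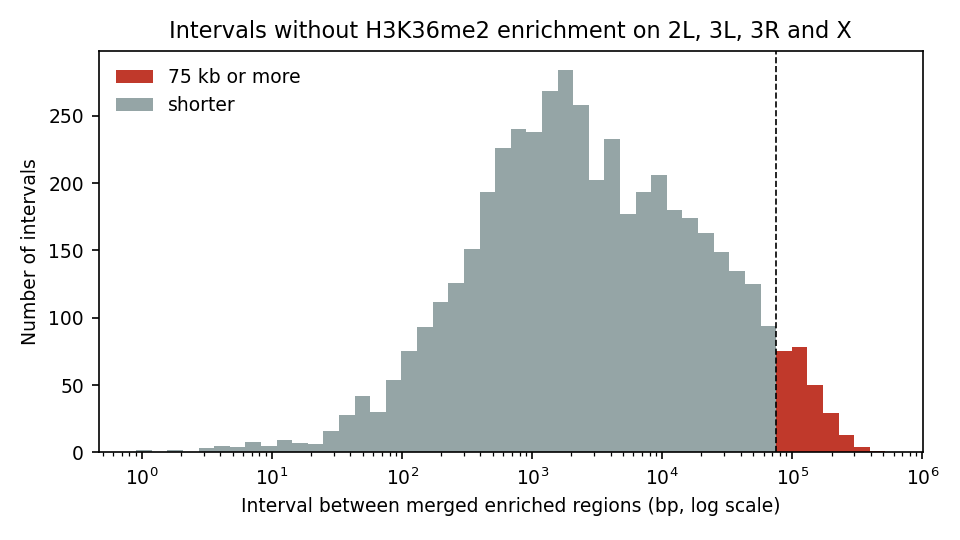
Number of intervals between consecutive merged enriched regions on 2L, 3L, 3R and X (y axis) by interval length in bp (x axis, log scale), with the 250 intervals of 75 kb or more in red and the 4516 shorter ones in grey. The red intervals form the upper tail of a continuous distribution and are cut off at the dashed line at 75 kb.

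Most stretches were between 75 and 150 kb long. Their median length was 117 kb, with quartiles of 95.5 and 155 kb. Of the 250 stretches, 81 measured 75 to 100 kb and 98 measured 100 to 150 kb. A further 43 measured 150 to 200 kb, 14 measured 200 to 250 kb, 9 measured 250 to 300 kb and 5 were longer than 300 kb. The 28 stretches of 200 kb or more held 21.2% of the summed length.

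All 4 arms carried stretches in similar number and of similar length. There were 65 on 2L (6.38% of its intervals), 54 on 3L (4.62%), 71 on 3R (5.17%) and 60 on X (4.98%). Per Mb of arm this was 2.82 on 2L, 2.20 on 3L, 2.54 on 3R and 2.68 on X. Median lengths were 123 kb on 2L, 122 kb on 3L, 111 kb on 3R and 120 kb on X. The arm with the fewest stretches, 3L, thus held long ones, with 20 of its 54 at 150 kb or more, against 18 on 2L, 18 on 3R and 15 on X. When the stretches were called in each replicate list alone they filled 39.6% ± 0.14 of 2L, 38.5% ± 0.14 of X, 35.6% ± 0.50 of 3R and 33.7% ± 0.26 of 3L (SD, n = 2 each). The steps between neighbouring arms in this order were 1.13 percentage points or more and exceeded the SD of both arms in each case. Here and below this SD is the spread between the 2 replicate lists. It does not measure how values vary along an arm or between arms, and such differences were not tested.

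Outside the stretches the share of sequence in enriched regions ranged from 34.2% on 3L to 37.7% on 3R. Enriched regions covered 35.8% ± 0.032 (SD, n = 2) of the sequence outside the stretches, against 23.6% ± 0.021 (SD, n = 2) of the whole arms. Outside the stretches the share was 35.97% ± 0.096 on 2L, 34.2% ± 0.13 on 3L, 37.7% ± 0.37 on 3R and 35.1% ± 0.86 on X (SD, n = 2 each). On 2L, the arm with the largest share in stretches, the remaining sequence was thus covered more than on 3L by more than the replicate SD.

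The 10 longest stretches together spanned 3.02 Mb, and 5 of them lay on 3L, 2 on 2L, 2 on 3R and 1 on X. The longest, 406 kb near the centromeric end of 3L (22302563 to 22708830), measured 406.4 kb (406394 bp) in replicate 1 and 406.5 kb (406531 bp) in replicate 2. Its borders were unequal. On its left lay a region of 32.2 kb with an authors' score of 2.06 in the replicate-set list, where replicate 1 reached 2.09 and replicate 2 reached 2.68. On its right lay a region of 1701 bp with scores of 0.266, 0.398 and 0.411 in the same lists. The score has no stated scale, and larger values stand for stronger enrichment only as the authors' lists rank them.

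The next longest was a 324 kb stretch in the middle of 3R (12480650 to 12804255), which lay between weak regions at both ends. Its left border, 1719 bp, was listed in replicate 2 with a score of 0.399 and in the replicate set with 0.313, and not in replicate 1. Its right border, 2195 bp, scored 0.561 in replicate 1 and 0.599 in replicate 2. The longest stretch of X (7237587 to 7553500) measured 316 kb in both replicates, between a region of 3401 bp that scored 1.51 in replicate 1 and 1.35 in replicate 2 and a region of 4559 bp that scored 0.927 and 0.734. A stretch of 315 kb on 3L (13533452 to 13848296) lay between regions of 2588 and 7860 bp. The second on 3R (2585825 to 2888084, 302 kb) was bordered on the left by a region of 3119 bp that also closed another stretch, so that the mark was listed over only these few kilobases between them.

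Positions 6 to 10 measured 263 to 286 kb. On 3L these were stretches of 286 kb (18164091 to 18450567), 275 kb (23747277 to 24021968) and 272 kb (4833281 to 5104911). On 2L they were stretches of 266 kb (11526500 to 11792386) and 263 kb (15907184 to 16170028). The third longest of 3R measured 262 kb (23800304 to 24062171), and the third longest of 2L measured 252 kb (16916602 to 17168627). After its longest, X had stretches of 256 kb (11922802 to 12178302) and 215 kb (21630967 to 21846105). Of the 20 edges of the 10 longest stretches, 17 were formed by regions found in all 3 lists. Among all merged regions the share found in all 3 lists was 82.3%. The bordering regions of the 10 longest stretches ranged from 1562 bp to 32.2 kb, with a median of 3470.5 bp.

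The replicates placed the unlisted intervals around most stretches at nearly the same positions. Each stretch lies by construction inside an unlisted interval of each replicate list, and the lengths of those intervals were within 1% of each other for 196 of the 250 stretches, or 78.4%. They differed by more than 1.5 times for 7 stretches. Across the 500 edges the replicates differed by a median of 106 bp, and 355 edges, or 71.0%, lay within 250 bp of each other. At 34 edges the difference was over 5 kb and at 16 over 25 kb, with a maximum of 127 kb. At 28 of those 34 edges the bordering region was listed in a single replicate and at 6 in neither. Of the 355 close edges, 319 had a bordering region listed in both replicates and 36 had 1 listed in neither. Most edges of the pooled stretches were set by the replicate-set list, whose regions reached furthest at 397 edges, against 71 for replicate 1 and 36 for replicate 2 (ties counted for each).

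**Figure D2:**
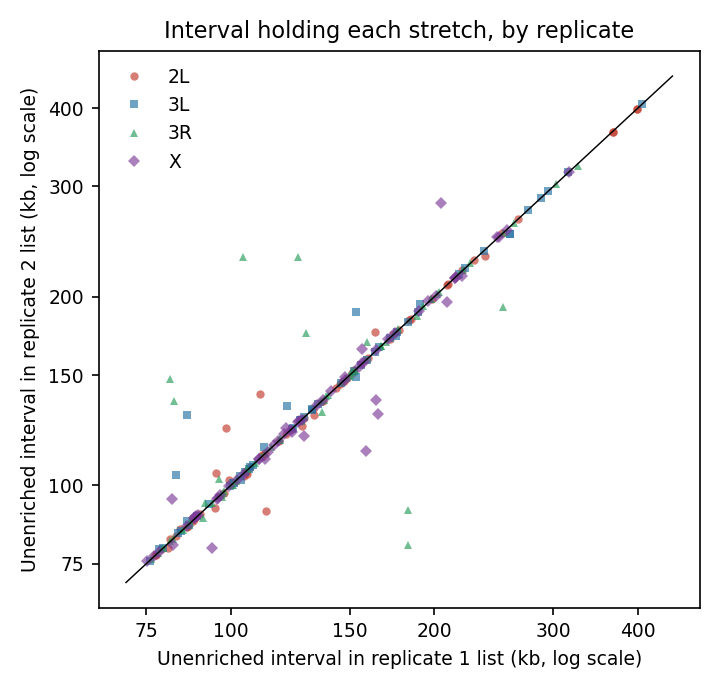
Length in kb of the unlisted interval that holds each of the 250 stretches, in the replicate 1 list (x axis) and the replicate 2 list (y axis), both on log scales, with the line of equality. Points lie on the line for most stretches on all 4 arms, and 7 stretches differ by more than 1.5 times.

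Called in each list on its own, the stretches numbered 255 in replicate 1 and 257 in replicate 2 (256 ± 1.4, SD, n = 2), against 250 in the replicate-set list. They summed to 35.8 Mb in replicate 1 and 36.1 Mb in replicate 2 (35.9 ± 0.27 Mb, SD, n = 2), and to 33.4 Mb in the replicate-set list. Of the 255 stretches of replicate 1, 29 held a region listed in replicate 2, and of the 257 of replicate 2, 28 held a region listed in replicate 1. These interrupting regions were short and weak. For the 32 from replicate 2 the medians were 1457 bp and a score of 0.507, while all replicate 2 regions of the 4 arms had 3683 bp and 0.987. For the 31 from replicate 1 they were 1796 bp and 0.580, while all its regions had 3624.5 bp and 0.996. Every such region lay under the median score of its list, 32 of 32 from replicate 2 and 31 of 31 from replicate 1. The replicate-set list also held 32 of 32 and 30 of 31, but it lacked only 10 of all 4772 merged regions.

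A few short regions of the replicate-set list split what both replicates left as a single stretch, and this happened between 5 pairs of neighbouring stretches. On 2L both replicates had an unlisted interval of 399 kb (398593 bp in replicate 1, 398628 bp in replicate 2), and it ranked second in each list. The replicate-set list placed a region of 1562 bp in it (15905622 to 15907183) with a score of 0.387, which made 2 stretches of 134 and 263 kb. A second interval of 2L, 367 kb in both replicates and the third longest of each, was split in the same way by 1376 bp (14845303 to 14846678, score 0.386) into 238 and 127 kb. On X an interval of 214 kb in both replicates was split by 1586 bp (14480985 to 14482570, score 0.345) into 111 and 102 kb. On 3L an interval of 259 kb in replicate 1 and 252 kb in replicate 2 was split by 2225 bp (15332560 to 15334784, score 0.426). The stretches on its sides measured 99.2 and 150.2 kb, and the replicate 1 interval ran on past them to 15492030. The fifth pair, of 82.1 and 84.6 kb, lay on 3R in an interval of 198 kb in both replicates. It was separated by 3 regions of the replicate-set list (1915056 to 1920976). A further region that neither replicate listed (2005557 to 2006579, score 2.44) closed the second stretch of this pair. The interval itself ran on to 2030894 in replicate 1 and 2030939 in replicate 2. The order of the longest stretches therefore depends on the 2 weak regions of 2L. The intervals joined on X, 3L and 3R would all be shorter than the tenth longest stretch. Single borders that a replicate did not list affect the order too. The 272 kb stretch of 3L (4833281 to 5104911) lay in an interval of 294 kb in both replicates, longer than the 286 kb stretch of 3L. On X a replicate 2 interval of 282 kb (21946008 to 22227976) held a stretch of 205 kb (22021985 to 22226574).

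Along the arms the distances between neighbouring stretches varied. Of the 250, 111, or 44.4%, were less than 50 kb from another stretch, edge to edge, and these formed 49 runs. Most were pairs, with 40 runs of 2 stretches, 6 of 3, 2 of 4 and 1 of 5. The share was 51.9% on 3L (28 of 54), 44.6% on 2L (29 of 65), 43.7% on 3R (31 of 71) and 38.3% on X (23 of 60). Stretches in runs had a median length of 111 kb and those outside runs 120 kb. The direction differed between arms. Those in runs were longer on 2L (127 against 115 kb) and X (124 against 117 kb). They were shorter on 3L (116 against 129 kb) and 3R (97.8 against 128 kb). No random placement was drawn, so whether the stretches lie closer together than randomly placed ones was not tested.

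The run with the most stretches lay on 3R (22096650 to 22661954), where 5 stretches of 75.8 to 111 kb took up 81.2% of 565 kb. The blocks between them held 12 merged regions, among them the longest region that bordered any stretch, 39.0 kb (22390561 to 22429607), which scored 1.69 in the replicate-set list, 1.83 in replicate 1 and 1.78 in replicate 2. The densest run of 4 lay on 2L (14392873 to 14973832), where stretches of 98.2, 105, 238 and 127 kb took up 97.9% of 581 kb and were separated by 3 single regions. In it a region of 3424 bp (14491069 to 14494492) scored 0.984 in replicate 1 and 1.04 in replicate 2, and a region of 7282 bp (14599641 to 14606922) scored 1.96 and 1.88. The third separator was the weak 1376 bp region of the replicate-set list alone. On X the run with the most stretches (14170514 to 14584372) held 3 stretches of 102 to 196 kb over 414 kb, with 2 regions between them. On 3L runs of 3 stretches spanned 10238290 to 10567057 (329 kb) and 14076507 to 14500440 (424 kb), and stretches took up 95.8 and 94.4% of them.

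The blocks of sequence between consecutive stretches numbered 246 and ranged from 1376 bp to 1.24 Mb (1244.96 kb), with medians of 158 kb and 12 merged regions. Of these blocks, 62 were under 50 kb, 34 under 10 kb and 39 at 500 kb or more. The longest block lay on 3L (20706073 to 21951030) and held 73 merged regions over 31.4% of its length. The longest on X (1670308 to 2686946) held 79 over 47.4%, the longest on 3R (20312528 to 21186418) held 57 over 47.7%, and the longest on 2L (18382446 to 19208964) held 53 over 33.3%. The longest blocks thus differed in how fully they were covered.

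In 29 of the 246 blocks, or 11.8%, a single merged region separated the 2 stretches, and 8 of these lay on 2L, 6 on 3L, 7 on 3R and 8 on X. These lone regions had a median length of 3413 bp and ranged from 1376 bp to 13.3 kb. All 3 lists held 23 of them (79.3%), and 4 (13.8%) were in the replicate-set list but in neither replicate. Among all merged regions these shares were 82.3% and 9.83%. The scores of the lone regions in the replicate-set list ranged from 0.345 to 2.32. The longest (2L 17963159 to 17976487) was also the highest in score, at 2.33 in both replicates and 2.32 in the replicate-set list. Lone regions were therefore not all weak, although the shortest of them were.

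In windows of 1 Mb the share of sequence in stretches ranged from 0 to 75.4%, with a median of 32.7% over 96 windows. In 19 windows it was 50% or more. The highest, chosen here after their values were seen, were 3L 10000001 to 11000000 at 75.4%, 3R 2000001 to 3000000 at 70.2% and 2L 14000001 to 15000000 at 65.7% (65.65). Called in each replicate list alone, the shares of these windows were 78.5% ± 1.3, 73.6% ± 0.086 and 67.1% ± 1.8 (SD, n = 2 each). The first windows of 2L and 3L held no stretch with the 3 lists pooled. In each replicate list alone the window of 2L again held none, and that of 3L held 7.80% in replicate 1 and 7.82% in replicate 2. The sequence from the start of 3L to its first region, 134 kb, would have passed the limit had the rule not left out arm ends. The replicates differed by at most 10.4 percentage points in a window.

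Counted from the telomere, the arms had no common order. On 2L stretches took up 25.2% of the third of the arm nearest the telomere, 43.8% of the middle and 43.3% of the third nearest the centromere. On 3L the shares were 23.6%, 39.1% and 32.3%, and on 3R they were 36.5%, 29.4% and 32.7%. On X they were 35.4%, 37.9% and 31.2%. With each replicate list alone the telomeric part remained the lowest on 2L (29.7% ± 0.059, SD, n = 2) and on 3L (27.1% ± 1.1, SD, n = 2), while on 3R it was the highest (39.2% ± 0.78, SD, n = 2). The centromeric part of X was the lowest of its arm with the 3 lists pooled but not with the replicate lists, in which it held 38.5% ± 0.048 (SD, n = 2), against 36.2% ± 0.47 (SD, n = 2) for the telomeric part.

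**Figure D3:**
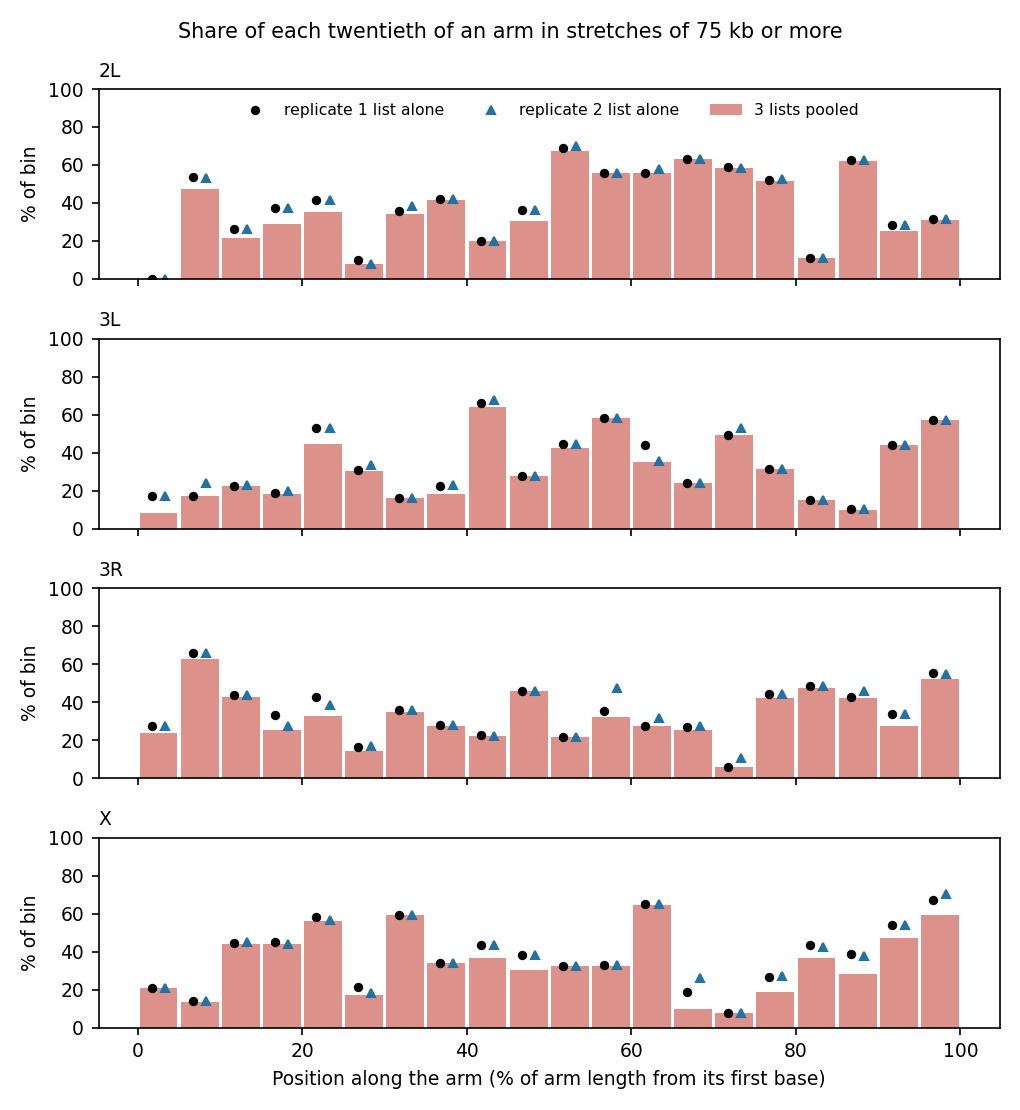
Percent of each bin of 5% of an arm's length that lay in stretches (y axis), by position from the first base of the arm (x axis, percent of arm length), for 2L, 3L, 3R and X, with bars for the 3 lists pooled and points for each replicate list alone. On 2L the bins from 50 to 80% are all above 50%, while the other arms alternate between high and low bins. The arms 2L, 3L and X run from telomere to centromere and 3R from centromere to telomere.

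The regions next to the stretches were close to the other regions in length and score. The 500 edges were formed by 471 merged regions, since 29 closed a stretch on both sides. Their median length was 3593 bp, with quartiles of 2198.5 and 5887.5 bp, against 3871 bp, with quartiles of 2232 and 7008 bp, for the other 4301 merged regions. Short regions of 2 kb or less made up 20.4% of the bordering regions and 19.9% of the others. Regions of 10 kb or more made up 8.92% of the bordering regions (42 regions) and 13.3% of the others. The difference therefore lay in long regions, which were less frequent at the edges, and not in short ones.

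Read in each list separately, the medians were close. The 399 bordering regions of replicate 1 measured 3527 bp and scored 0.976 at the median, against 3640 bp and 1.00 for the other 4247. In replicate 2 the 398 bordering regions had medians of 3484 bp and 0.938, against 3708 bp and 0.994 for the other 4171. In the replicate-set list the 469 had medians of 3610 bp and 0.795, against 3824.5 bp and 0.861 for the other 4324. The ratio of medians, bordering over other, was 0.954 ± 0.021 for length and 0.960 ± 0.023 for score (SD, n = 2 replicate lists each). Of the bordering regions, 24.1% in replicate 1 and 25.6% in replicate 2 lay in the lowest 25% of scores of their list, and 24.8% and 24.4% lay in the highest 25%. Edges were thus drawn from all levels of enrichment.

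**Figure D4:**
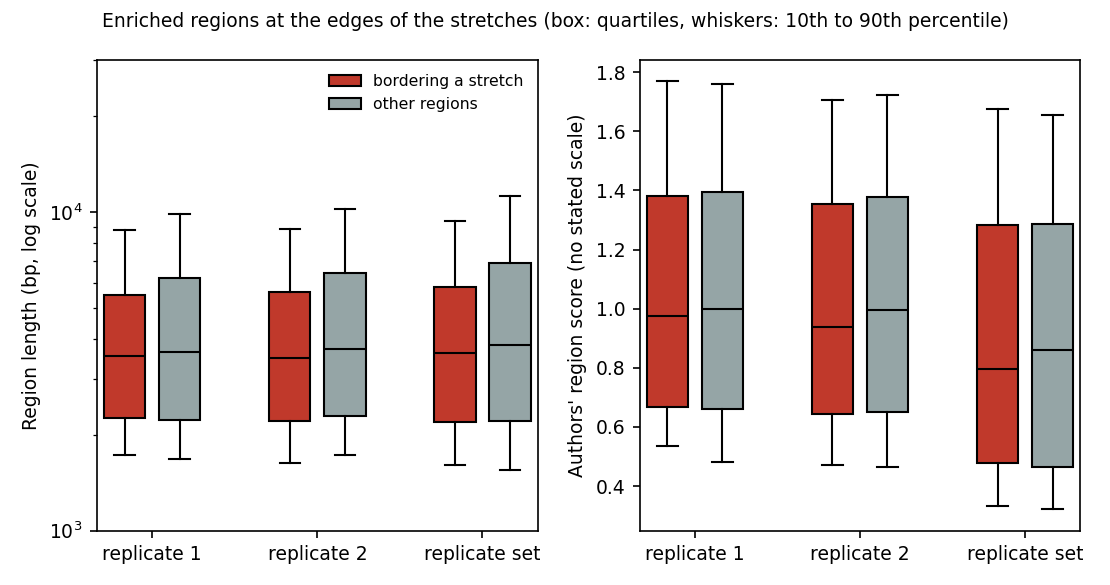
Length in bp (left, log scale) and authors' score with no stated scale (right) of the regions that border a stretch (red) and of all other regions of the 4 arms (grey) in each list, with boxes for quartiles and medians and whiskers for the 10th to 90th percentile. The boxes overlap almost entirely, and the medians of bordering regions are slightly lower in all 3 lists.

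The small difference did not have the same sign on every arm. On 2L bordering regions had higher median scores than the others, 1.05 against 0.945 in replicate 1 and 1.03 against 0.940 in replicate 2. On 3L they had lower ones, 0.816 against 1.00 in replicate 1 and 0.855 against 0.985 in replicate 2. On 3R the medians were 0.974 against 0.984 in replicate 1 and 0.929 against 0.974 in replicate 2, and on X 1.02 against 1.08 and 0.962 against 1.09. Their lengths on 3L were also lower, at a median of 3168 bp against 3753 bp for replicate 1 and 3079 bp against 3732 bp for replicate 2.

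Most bordering regions were found in every list. All 3 lists held 376 of the 471, or 79.8%, against 82.6% of the other merged regions and 82.3% of all merged regions. A further 51, or 10.8%, were in the replicate-set list but in neither replicate, against 9.83% of all merged regions. At the median those 51 measured 1495 bp and scored 0.368, and the 376 measured 4218 bp and scored 0.935. Exceptions, chosen after their values were seen, were 3R 2005557 to 2006579 with a score of 2.44 and X 20714059 to 20715059 with 2.13, short regions that neither replicate listed. Of the same kind were X 21547748 to 21549595 with 1.77, 3R 831536 to 833547 with 1.76 and 2L 21538383 to 21540187 with 1.51. The right border of the 272 kb stretch of 3L (5104912 to 5106511, 1600 bp) was also of this kind, with a score of 1.46. The next highest of the 51 scored 0.542. For 158 of the 250 stretches, or 63.2%, both borders were in all 3 lists, for 83 a single border was, and for 9 neither was.

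Some edges were formed by strong and long regions. The highest score in the replicate-set list, 3.05, belonged to 3R 17490413 to 17497925, a region of 7513 bp that scored 3.17 in replicate 1 and 2.98 in replicate 2. Next came X 9253016 to 9270610 at 2.52 and 3R 4653049 to 4669194 at 2.48. After the 39.0 kb region of 3R, the longest were 33.5 kb on 3L (5127139 to 5160660) and the 32.2 kb region beside the longest stretch. The length of a stretch told little about its borders. Across the 250 stretches Spearman's rho between stretch length and the mean log length of its 2 borders was 0.011, and between the lengths of its left and right border 0.018. These are descriptions across stretches, some of which share a border. The 63 longest stretches (155 kb or more) had borders with a median of 3470.5 bp, and the 62 shortest (up to 95.3 kb) had borders with a median of 3522 bp.

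Coverage by enriched regions was high next to a stretch and then fell below the level far from any stretch. In the first 2 kb outside a stretch, where the bordering region lies by construction, 76.5% ± 1.5 (SD, n = 2) of the sequence was in enriched regions. The share was 60.9% ± 0.085 from 2 to 5 kb, 43.2% ± 0.44 from 5 to 10 kb and 36.2% ± 0.0012 from 10 to 20 kb. Further out it was 34.3% ± 0.11 from 20 to 30 kb, 31.7% ± 0.12 from 30 to 40 kb, 30.7% ± 0.090 from 40 to 50 kb and 32.2% ± 0.023 from 50 to 75 kb. It was 34.8% ± 0.036 from 75 to 100 kb. Beyond 200 kb from any stretch it was 36.2% ± 0.036 (SD, n = 2 throughout). From 20 to 200 kb the share was thus below that beyond 200 kb by more than the replicate SD, and by 5.51 percentage points at its lowest, from 40 to 50 kb. That SD does not measure variation between positions, and the difference was not tested. The bordering region was not removed from the values nearest the edge.

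**Figure D5:**
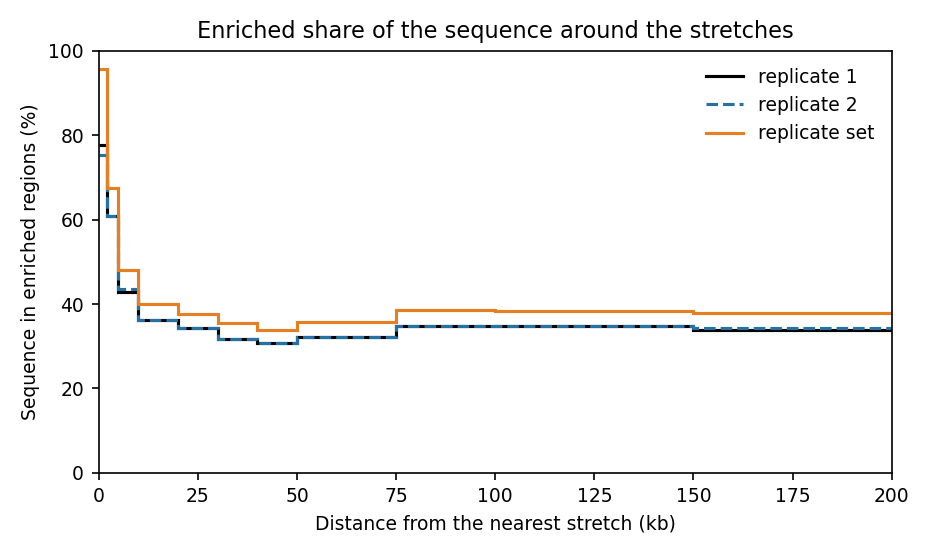
Percent of sequence in enriched regions (y axis) by distance in kb from the nearest stretch (x axis), over the 4 arms, for the replicate 1, replicate 2 and replicate-set lists. The replicate lines coincide, fall within 10 kb of the edge, and lie between 30.7 and 36.2% from 10 to 200 kb, and the replicate-set line runs above them.

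Intervals just beyond the bordering region were longer than usual. Their median was 4618 bp over 499 edges, against 2460.5 bp for all intervals and 2134.5 bp for those under 75 kb. Of them, 30.9% (154) measured 20 kb or more, some being stretches themselves, against 18.4% of all intervals. Counting merged regions outward from the edge, the median length was 3593 bp for the first region, 3970 bp for the second and 3672 bp for the third, and 3883 bp beyond the tenth. The eighth, at 3585.5 bp, and the tenth, at 3457 bp, were shorter than the first. The median score in the replicate-set list was 0.795 for the first, 0.864 for the second and 0.868 for the third, and 0.872 beyond the tenth. The eighth region had a median of 0.777 in that list, below that of the first. In replicate 1 the median scores were 0.989 for region 1, counted outward from the edge, and 1.04 for region 8. In replicate 2 they were 0.959 and 0.975, so neither replicate list placed region 8 below region 1. In replicate 1, however, region 6 (0.959) and region 10 (0.949) lay below region 1, and the others lay above it. In replicate 2 region 1 was the lowest, but region 10 (0.961) and region 6 (0.970) were close to it. A low median score was therefore not particular to the region next to the stretch.

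The replicate-set list named 3 regions on these arms as depleted rather than enriched, and each replicate list none. These 3 lay outside the stretches, apart from a short overlap. Since stretches took up 34.1% of the arms, 3 regions cannot show whether depleted regions avoid them. The depleted region at 3L 15801913 to 15803388 overlapped the edge of a stretch by 24 bp of its 1476 bp. It lay over the bordering region itself (15801937 to 15803363), which both replicates listed as enriched, with scores of 0.153 in replicate 1 and 0.0551 in replicate 2, and the replicate-set list did not. The lists thus disagree there, and the sequence lies outside the stretch only through the replicate lists. Those at 3L 18099505 to 18100931 and X 19169849 to 19171293 lay 18.2 and 66.9 kb from the nearest stretch. Apart from that 24 bp overlap, no region of either kind was listed within a stretch.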

How the data were processed

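The authors deposited a region list for each of 2 ChIP samples and 1 for the replicate set. Bowtie 0.12.7 is the aligner named per the submitters' processing notes, and positions refer to FlyBase release 5, per the file headers. No source used here states how regions were called or replicates combined. The score of a region, as deposited by the authors, has no stated scale, so scores were compared within a list or set side by side. The lists hold no counts, so depth is unknown, and input values were not analysed here.

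Rows naming enrichment were pooled over the 3 lists and merged where they shared at least 1 bp. Gaps of 75 kb or more between consecutive merged regions were kept, arm ends left out. A merged region's score in a list is the highest of its regions there. In each list the bordering region is the list's region nearest the edge within the bordering merged region. A mean ± SD is over both replicate lists. Named stretches were the 10 longest, the 3 longest of each arm, those nearest the limit and the runs with the most stretches. The members and lists were chosen with earlier results of these data known. The gap search was tested on simulated lists and checked against bedtools 2.31.1. No test was made, since the lists chose the stretches. The gene table used here describes release 6, so no gene or sequence was assigned to release 5 positions. Scripts ran in Python 3.11.15 with pandas 2.3.3, NumPy 2.4.6, SciPy 1.17.1 and matplotlib 3.10.9.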

Additional observations from a re-analysis of the deposited data

Results flagged for a closer look

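The median score of bordering regions over that of other regions was above 1 in both replicates on 2L and below 1 in both on the other arms. It was 1.11 in replicate 1 and 1.10 in replicate 2 on 2L, 0.816 and 0.868 on 3L, 0.990 and 0.953 on 3R, and 0.947 and 0.885 on X. The same ratio for length was 1.03 in replicate 1 and 1.03 in replicate 2 on 2L, 0.844 and 0.825 on 3L, and 0.971 and 0.897 on 3R. In the replicate-set list the ratio for score was again above 1 on 2L (1.07) and below 1 on 3L (0.773), 3R (0.921) and X (0.954). For length it was below 1 on 2L there (0.940), so the direction for length on 2L differs between the lists. On X it differs too, where the ratio for length was 1.00 (1.00047) in replicate 1 and 0.927 in replicate 2, while the replicate-set list gave 1.06. The difference between the arms was not tested.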

How the results depend on the processing

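The 6 results were recomputed under up to 14 alternatives, which gave 74 values. In 44 the number of stretches stayed within 1.5 times, or another value within 1 SD of the replicates, and 30 moved further. The 3 that pool 2 of the 3 lists unfiltered were chosen after seeing the data, unlike the others. No paired analysis was possible because the ChIP samples form a single group and no input values were analysed. A minimum of 50 kb gave 394 stretches, 42.3 Mb, a median of 90.1 kb, 57.9% in runs and a length ratio of 0.992. A minimum of 100 kb gave 169 stretches, 26.3 Mb, 142 kb, 26.0% and 0.926. Regions overlapping in both replicate lists gave 36.7 Mb, 126 kb, 47.5% and a length ratio of 0.994. The higher-scoring 50% of each list gave 296 stretches, 46.7 Mb, 140 kb, 52.0% and a score ratio of 0.992. The counts of 169 and 296 passed only because the limit of 1.5 times is far wider than the replicate SD of the count, 1.4. Both replicate lists without the replicate-set list gave 35.3 Mb, 121 kb and 47.2%. Including arm ends gave a median of 118 kb (117.575). Runs under 25 kb apart held 34.8% and runs under 100 kb apart 62.0% of the stretches. Leaving out each replicate together with the replicate-set list, so that a single replicate list was used, gave 255 to 257 stretches, 35.8 to 36.1 Mb, medians of 123 to 124 kb (123.247 to 123.542), 47.1 to 48.2% in runs, score ratios of 0.944 to 0.972 and length ratios of 0.969 to 0.985. With the replicate-set list kept, leaving out replicate 1 or replicate 2 gave 250 stretches and 33.4 Mb each and moved none of the 6 results further than 1 SD. The replicate-set list alone already gave 250 stretches and 33.4 Mb, and it may hold the data of the replicate left out. These settings therefore cannot show how far the results depend on a replicate. Changes of the minimum, the run distance and the set of regions move these values by construction, and no other cause was tested. Ratios of bordering to other regions stayed below 1 in all of these but, being near 1, rest on the choice of regions. With depth unknown, a stretch may hold enrichment below the callers' threshold.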
